A study of Sus scrofa domesticus with 4 samples.

Results

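HSP90AA1, HSPA8, HSPB1 and HSPH1 encode molecular chaperones of the cytosol, and their transcripts were followed in pig myometrium, the muscular wall of the womb. Members were all non-control probes of the array design whose RefSeq transcript belongs to 1 of these genes. This gave 4 of 3029 named genes and 11 of 43603 probes: 6 for HSP90AA1 (NM_213973), 1 for HSPA8 (NM_001243907), 2 for HSPB1 (NM_001007518) and 2 for HSPH1 (NM_001097504). The tissue came from the middle of the uterine horns of crossbred gilts (Large White x Polish Landrace), 7 to 8 months old, on days 15 to 16 of gestation. Explants were preincubated for 2 h and then kept for 24 h with orexin A (OXA, a neuropeptide hormone) or, as the non-treated control, without it. The sample labels give the dose as 10 nM and the series' design text as 10 µM, and which one holds is not known here. Each of 4 two-colour Agilent arrays set OXA-treated against non-treated tissue, with OXA in the red dye Cy5 on arrays 1 and 3 and in the green dye Cy3 on arrays 2 and 4, per the sample labels. The wording of the labelling protocol instead has OXA in Cy5 on all arrays, and which one holds is not known here. Ratios follow the sample labels unless stated otherwise. The labels speak of 4 individuals and 4 separate experiments with duplicate cultures. They do not say outright that both RNAs of an array came from 1 animal.

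HSP90AA1 is the stress-inducible cytosolic HSP90, which completes the folding of kinases and steroid receptors. HSPA8 (HSC70) is the constitutive HSP70, which binds newly made and unfolded chains, and HSPH1 (HSP105, of the HSP110 family) is a nucleotide exchange factor that resets HSP70. HSPB1 (HSP27) is a small heat shock protein that holds unfolded proteins without using ATP; in smooth muscle it also binds the actin cytoskeleton. Genes of this kind are switched on by heat shock factor 1 when unfolded proteins accumulate.

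Of 10 listed smooth muscle markers, 5 had a named probe here (ACTA2, CNN1, DES, SMTN and MYLK), and all 5 passed the filter on dim probes. Markers of epithelium, macrophages, endothelium and fibroblasts passed it too, so this check does not tell the labelled tissue from another. The filter kept 19505 probes whose OXA or non-treated channel was well above background on 3 or more of the 4 arrays. All 11 chaperone probes passed it, and they cleared background in both channels of every array. Explants hold several cell types, and fewer cells of a type cannot be told apart from less RNA per cell. Array 2 stood apart: over the tested probes (not independent of each other), its log2 ratios correlated with those of arrays 1, 3 and 4 at r = -0.59, -0.30 and -0.38. Arrays 1 and 4 correlated at 0.62 and arrays 1 and 3 at 0.23, and arrays 3 and 4 at -0.06, so array 3 also resembled the others little. Arrays 2 and 4 have the same dye orientation by the sample labels and by the protocol wording, so neither account turns array 2 alone. A direction common to all arrays is not settled by either account. Because of these correlations, values with the sign of array 2 turned are given for the members and the list medians, although they follow neither account.

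The mean ratios of HSP90AA1 differed in sign between its probes when the sample labels were followed. Of its 6 probes, 3 had negative mean log2 ratios of OXA over non-treated and 3 had positive ones, from -0.38 to 0.24, and none passed the test. With Cy5 taken as OXA on all arrays, every HSP90AA1 probe had a negative mean instead, from -0.54 to -0.06. On the brightest probe, A_72_P700356, the processed signal (background-subtracted, dye-normalized brightness in arbitrary units) was 32243, 31285, 18564 and 28261 with OXA on arrays 1 to 4. In non-treated tissue it was 29430, 18171, 30728 and 16353. OXA was the brighter channel on arrays 1, 2 and 4 and the dimmer one on array 3, and the ranges of both groups overlapped. The log2 ratios were 0.13, 0.78, -0.73 and 0.79, or 0.24 ± 0.72 (SD, n = 4), a 1.19-fold mean.

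Another bright probe of HSP90AA1, A_72_P232852, read otherwise. Its processed signal was 20343, 23996, 16877 and 28047 with OXA and 27820, 23828, 23474 and 31248 without, so OXA was dimmer on arrays 1, 3 and 4 and level on array 2. The log2 ratios were -0.45, 0.01, -0.48 and -0.16, with a mean of -0.27 ± 0.24 (SD, n = 4). A_72_P683318 followed the same course with -0.49, 0.004, -0.38 and -0.64 (mean -0.38 ± 0.28). A_72_P525187 was negative on every array with -0.28, -0.15, -0.45 and -0.33 (mean -0.30 ± 0.12, SD, n = 4).

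The remaining HSP90AA1 probes resembled the brightest one. A_72_P634756 had 0.07, 0.54, -0.50 and 0.49 (mean 0.15 ± 0.48), and A_72_P669304 had 0.20, 0.06, -0.21 and 0.29 (mean 0.08 ± 0.22, SD, n = 4). Array 3 was the only one of the 4 on which all 6 probes had 1 sign, with log2 ratios from -0.73 to -0.21. On arrays 1 and 4, 3 of 6 probes were negative, and on array 2 only 1 of 6. Within an array, A_72_P700356 lay above A_72_P232852 by 0.58, 0.77 and 0.95 on arrays 1, 2 and 4 and below it by 0.25 on array 3 (mean difference 0.51 ± 0.53, SD, n = 4). Probe sequences were not used here, so which transcript ends or paralogs each probe detects was not tested.

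Such disagreement was common in this design but larger than usual for HSP90AA1. Of 135 named genes with at least 6 tested probes, 57 (42.2%) had mean ratios of both signs, and the median range between their probes was 0.30. The range of HSP90AA1 was 0.62, and 23 of the 135 genes had a range at least as wide, HSP90AA1 among them. The mean over its 6 probes was -0.14, 0.21, -0.46 and 0.07 on arrays 1 to 4, or -0.08 ± 0.29 (SD, n = 4).

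**Figure D1:**
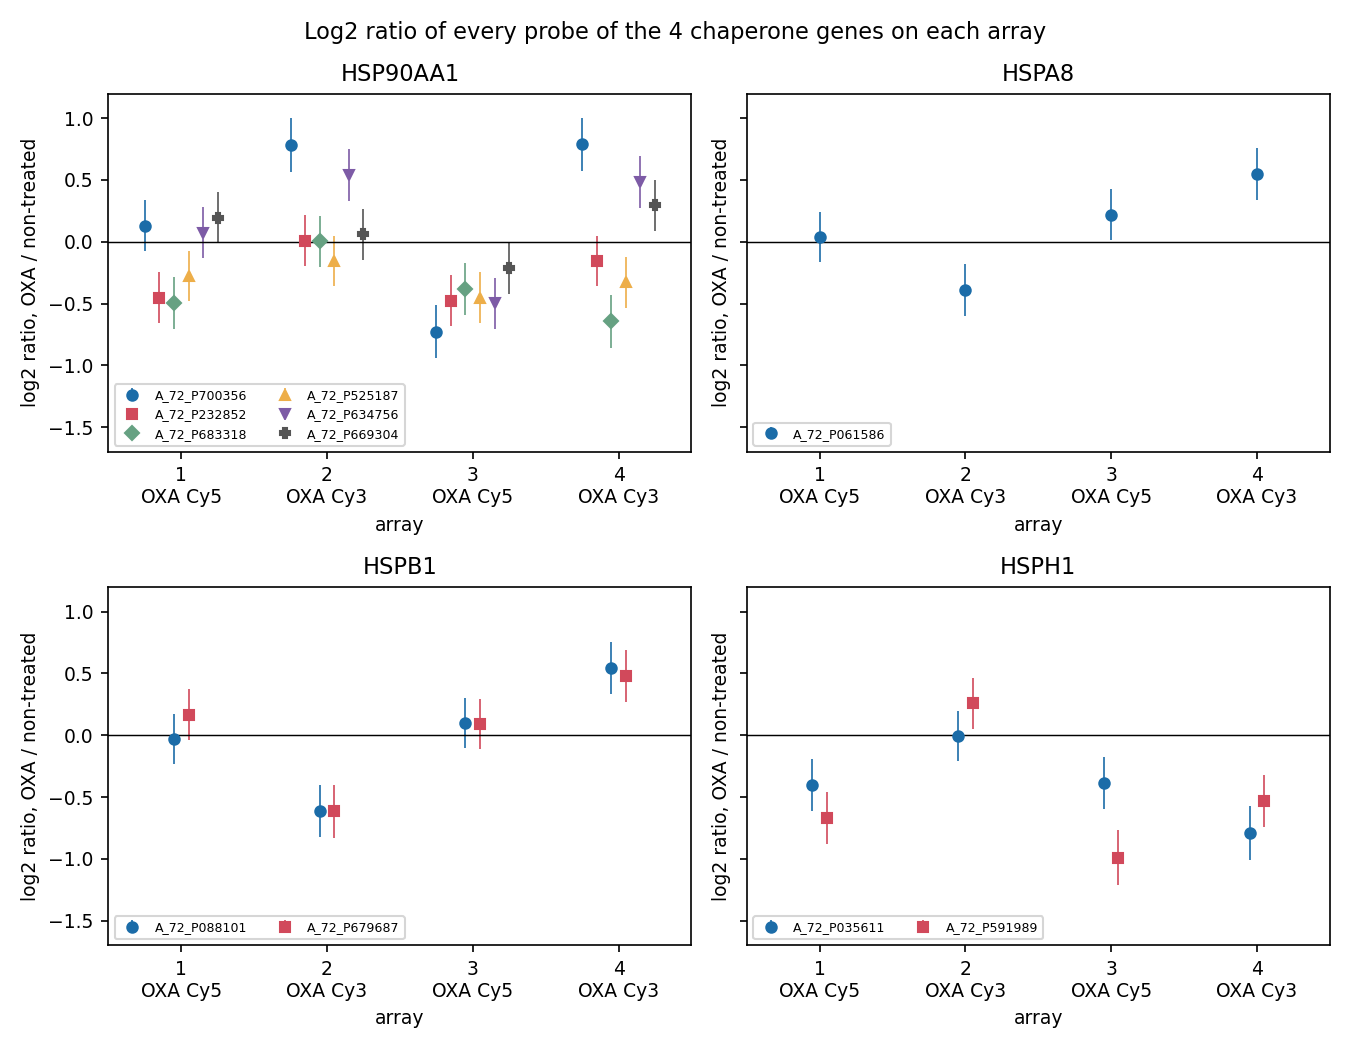
Log2 ratio of OXA over non-treated (vertical axis) on each of 4 arrays (horizontal axis, with the dye of OXA), for every probe of the 4 genes; bars are the scanner software's error of 1 spot. The HSP90AA1 probes lie on both sides of 0 on arrays 1, 2 and 4 and all below 0 on array 3, while the pair of HSPB1 probes nearly coincides on arrays 2 to 4.

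HSPA8 differed little between treatments on average and not in 1 direction across arrays. Its single probe, A_72_P061586, gave a processed signal of 57749, 53249, 44999 and 84032 with OXA and 56299, 69761, 38635 and 57475 without. OXA was dimmer on array 2, about level on array 1 and brighter on arrays 3 and 4, and the groups overlapped. The log2 ratios were 0.04, -0.39, 0.22 and 0.55, with a mean of 0.10 ± 0.39 (SD, n = 4).

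HSPB1 had means close to 0 on both probes, built from opposite values on arrays 2 and 4. The processed signal of the brighter probe, A_72_P088101, was 39409, 16698, 22419 and 62536 with OXA and 40177, 25559, 20941 and 42974 without. The log2 ratios were -0.03, -0.61, 0.10 and 0.54, a mean of -0.0006 ± 0.48 (SD, n = 4). The other probe, A_72_P679687, gave 0.17, -0.62, 0.09 and 0.48 (mean 0.03 ± 0.46, SD, n = 4). Both probes thus put OXA below non-treated on array 2 and above it on array 4. They differed from each other by 0.20 at most on any array, less than the scanner software's error of a single log2 ratio, which was 0.20 to 0.22 over the 11 probes.

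The level of HSPB1 varied between arrays in both channels. On A_72_P088101 the highest OXA signal was 3.74 times the lowest, and the highest non-treated signal 2.05 times the lowest. On A_72_P679687 these factors were 4.08 and 2.43, and both channels of array 4 were the brightest of their group. For HSPA8 they were 1.87 and 1.81. Processed signals are not scaled between arrays, so the part of array brightness in these factors was not tested.

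HSPH1 was the member with the most negative mean ratios, on both of its probes, although neither passed the test. The processed signal of A_72_P035611 was 8064, 13730, 8850 and 5398 with OXA and 10659, 13807, 11567 and 9349 without. OXA was the dimmer channel on arrays 1, 3 and 4 and level with the control on array 2. The groups overlapped, since the highest OXA value, 13730, was above the lowest non-treated value, 9349. The log2 ratios were -0.40, -0.008, -0.39 and -0.79, with a mean of -0.40 ± 0.32 (SD, n = 4), or 0.759-fold.

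The dimmer HSPH1 probe, A_72_P591989, showed the same on arrays 1, 3 and 4. Its processed signal was 3832, 7380, 3838 and 2917 with OXA and 6100, 6164, 7632 and 4220 without. The log2 ratios were -0.67, 0.26, -0.99 and -0.53, with a mean of -0.48 ± 0.53 (SD, n = 4), or 0.715-fold. OXA was brighter only on array 2. Averaged over both probes, HSPH1 had -0.54, 0.13, -0.69 and -0.66 on arrays 1 to 4.

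**Figure D2:**
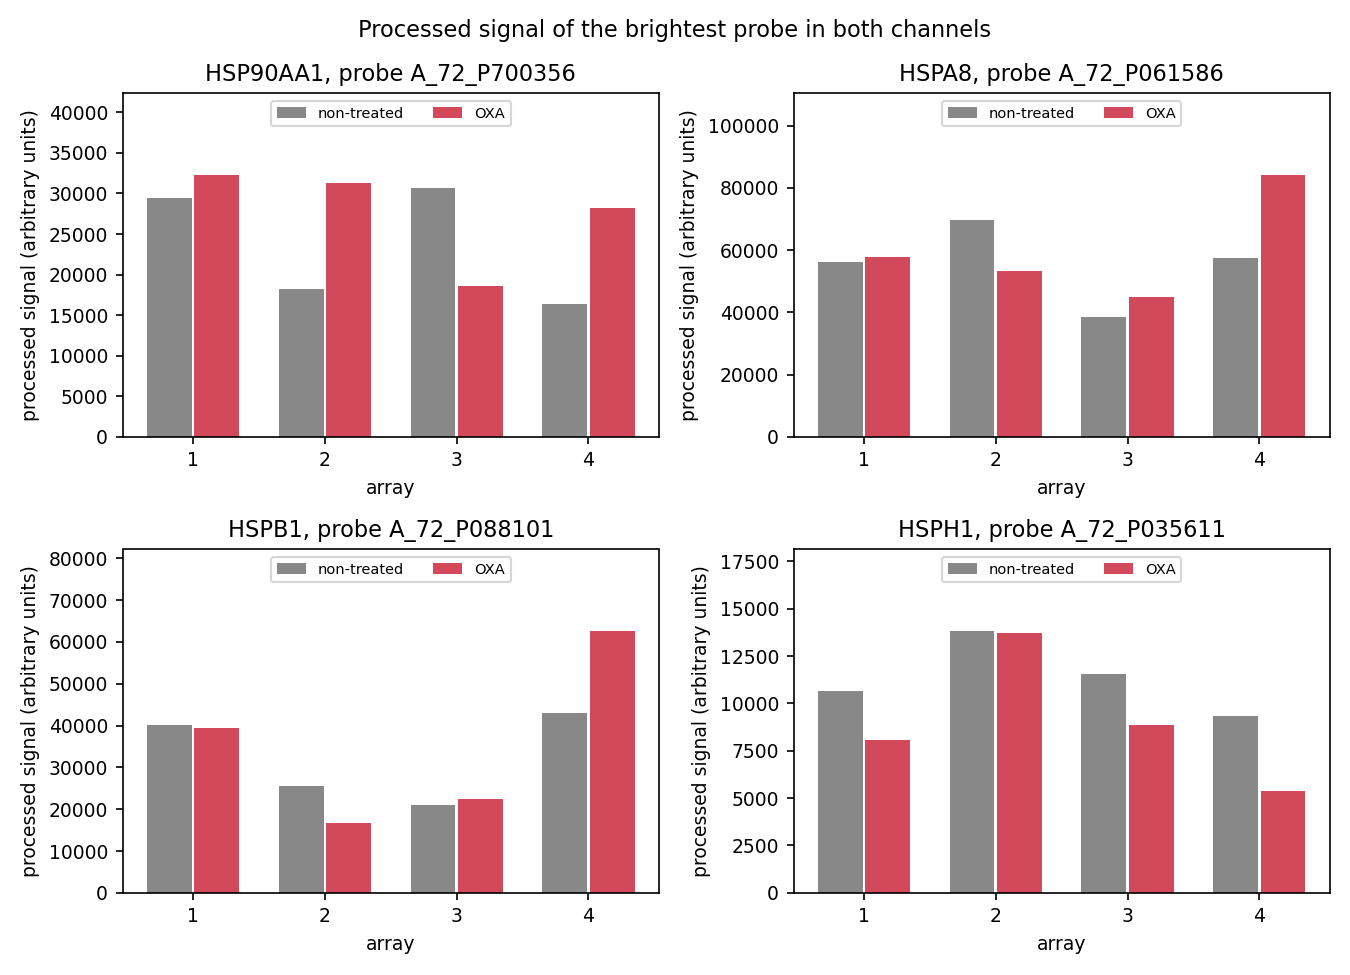
Processed signal in arbitrary units (vertical axis, from 0) of the brightest probe of each gene on arrays 1 to 4, in the non-treated and the OXA channel; each bar is 1 channel of 1 array. HSPH1 has the lower bar for OXA on arrays 1, 3 and 4 (8064 against 10659 on array 1), and HSPB1 has its highest bar, 62536, for OXA on array 4.

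None of the 11 probes was called at an adjusted p under 0.05 in limma, nor was any of the 19505 probes (0% called, lowest adjusted p = 0.998). At an unadjusted p under 0.05 the 11 probes again gave 0, where 1.2% of all tested probes (235) passed. The smallest unadjusted p was 0.134, for A_72_P591989 of HSPH1, whose 95% interval ran from -1.17 to 0.20 (limma, adjusted p = 0.998). A_72_P035611 of HSPH1 had an interval from -1.07 to 0.27. For HSPA8 the interval was -0.59 to 0.80, for A_72_P088101 of HSPB1 -0.74 to 0.73, and for A_72_P700356 of HSP90AA1 -0.44 to 0.93. These intervals include changes of more than 1.5-fold both ways for HSPA8 and HSPB1. An exact sign test on 4 arrays could not go below a two-sided p of 0.125.

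Log2 ratios were negative on all 4 arrays for 2 of the 11 probes, A_72_P525187 of HSP90AA1 and A_72_P035611 of HSPH1, where 3.76% of all tested probes were. They were positive on all 4 arrays for 0 of the 11, against 3.96%. The median of the 11 means was -0.0006, beside -0.02 over all tested probes, and 6 of 11 were negative, beside 52.8% of all.

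With the sign of array 2 turned, HSPH1 had -0.53 and -0.59 on A_72_P035611 and A_72_P591989, and HSPA8 had 0.38. HSPB1 then had 0.38 and 0.39 on its probes, against -0.0006 and 0.03 as labelled. HSP90AA1 kept 3 negative and 3 positive probes, with 0.16 on A_72_P700356, -0.23 on A_72_P232852 and -0.47 on A_72_P683318. Of the 11 probes, 3 were then negative on all 4 arrays and 2 were positive, where 17.8% and 17.7% of all tested probes were. None had an unadjusted p under 0.05 in limma, while 27% of all tested probes did (lowest adjusted p among the 11 = 0.187). Array 2 was turned because it correlated negatively with the others, so turning it raises agreement between arrays by construction. The shares and p-values with array 2 turned therefore cannot decide whether a probe responded. Without array 2, HSPH1 had -0.59 and -0.68 and 0 of the 11 probes were called, against 5.6% of all tested probes (1093). The intervals of the 11 probes had nearly the same width in that fit. Its calls therefore follow the size of a ratio and not the spread of that probe.

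If the sample labels hold, a term for the dye in the same fit measured how far Cy5 exceeded Cy3 whatever the treatment. If OXA was in Cy5 on all arrays, the same term is the OXA ratio itself. Dye and OXA then cannot be told apart. It was largest in size for A_72_P700356 of HSP90AA1 (-0.54), A_72_P634756 of HSP90AA1 (-0.36) and A_72_P591989 of HSPH1 (-0.35), and none was called (limma, adjusted p = 1 for each). The other 8 probes had dye terms from -0.20 to 0.10, and those of HSPA8 and HSPB1 were 0.02 to 0.10. The median size of the dye term was 0.09 over the 11 probes and 0.19 over all tested probes. For HSP90AA1, 2 of the 3 probes with positive mean ratios were the ones with the dye terms of -0.54 and -0.36, and the part of dye bias in the split between its probes was not tested. The ratio of Cy5 over Cy3 had 1 sign on all 4 arrays for 0 of the 11 probes, where it did for 9.69% of all tested probes. The epithelial markers EPCAM, MUC4 and CDH1 had larger dye terms, -2.02, -1.72 and -1.48, also not called (limma, lowest adjusted p = 0.896).

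**Figure D3:**
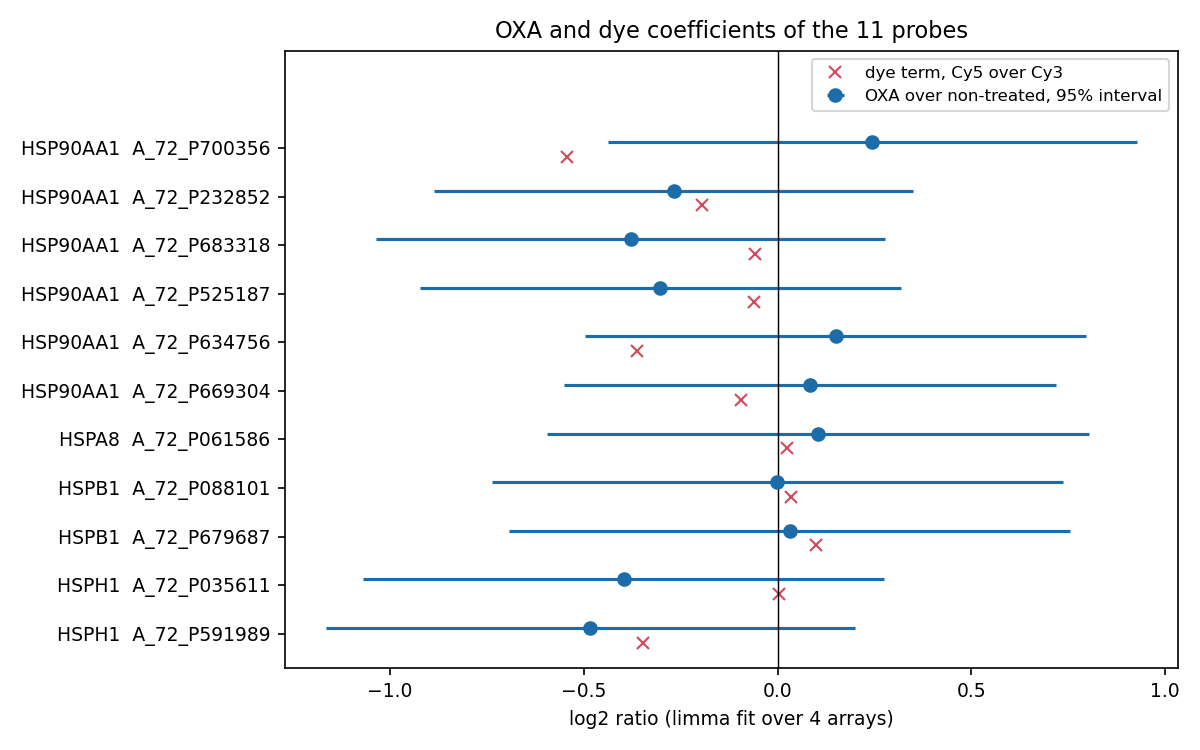
OXA coefficient with its 95% interval (circles and bars) and dye coefficient (crosses) of each of the 11 probes from the limma fit, on a log2 axis. Every interval includes 0, and the crosses of HSP90AA1 reach from -0.54 to -0.06.

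Both HSPB1 probes and the HSPA8 probe had their lowest log2 ratio on array 2 and their highest on array 4. Both HSPH1 probes and the HSP90AA1 probes A_72_P232852, A_72_P683318, A_72_P525187 and A_72_P634756 had their highest log2 ratio on array 2, with the other arrays in differing order. The summed signals of other cell types' markers moved between arrays too. Over 8 tested macrophage markers, the median log2 ratio was 0.70, -0.66, 1.98 and 0.73 on arrays 1 to 4. It was highest on array 3 and negative on array 2, as were HSPA8, HSPB1 and the smooth muscle, endothelial and fibroblast medians on array 2. The summed processed signal of the macrophage markers ran from 1309 to 9092 with OXA and from 1424 to 5404 without. Over 5 tested markers of uterine epithelium, the medians were -1.15, 2.06, -0.90 and 1.87, and on arrays 2, 3 and 4 they had the signs of A_72_P700356 of HSP90AA1. Their summed signal ran from 2447 to 10530 with OXA and from 2428 to 6057 without. Smooth muscle markers had medians of -0.44, -0.11, 0.40 and -0.61, with summed signals from 202439 to 462534 with OXA and from 172389 to 568912 without. Endothelial markers (4 tested) had -0.40, -0.18, 0.26 and 0.59, and fibroblast markers (3 tested) had -0.14, -0.43, 0.19 and -0.59. Red blood cell markers are not analysed here. The part of tissue composition in the chaperone ratios was not tested.

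Among 1981 other named genes, the patterns closest to each member were found by the root mean square difference of the 4 log2 ratios, each gene with its brightest probe. Closest to HSPA8 were CTSH, a lysosomal cathepsin (difference 0.04), PYGL, liver glycogen phosphorylase (0.06), and NTN1, a netrin (0.10). CTSH had 0.006, -0.42, 0.16 and 0.52 on arrays 1 to 4. HSPB1 was followed most closely by ABHD5, a co-activator of fat hydrolysis (0.09), EFNA1, an ephrin (0.10), and FABP3, a fatty acid carrier of muscle (0.10). ABHD5 had -0.008, -0.52, 0.04 and 0.40. For HSPH1 they were SLC30A7, a zinc transporter (0.07), AP3B1, an adaptor of vesicle transport (0.08), and HSD17B4, a peroxisomal enzyme (0.09). SLC30A7 had -0.38, -0.14, -0.42 and -0.76. The brightest HSP90AA1 probe had no neighbour so near: F3, tissue factor, differed by 0.17, TNNI3 by 0.19 and PARD6B by 0.21.

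The rest of the cytosolic chaperone system was sparsely named on this array. Of 69 listed partners (other HSP90 and HSP70 proteins, cochaperones, small heat shock proteins, heat shock factors, chaperonin and prefoldin), 17 had a named probe and 16 were tested. None was called in limma (0 of 16, against 0% of all tested probes), and 1 had an unadjusted p under 0.05, against 1.2% of all. The median of the 16 means was 0.07, with 7 negative and 9 positive. With the sign of array 2 turned, the list medians moved from -0.07 to 0.17 for other HSP90 and HSP70 proteins and from -0.10 to 0.25 for J-domain proteins, both a change of sign. They moved from 0.13 to 0.53 for cochaperones, from 0.08 to 0.31 for chaperonin and prefoldin, and from 0.23 to 0.21 for the single gene listed with the heat shock factors. No listed small heat shock protein was named, so HSPB6 and CRYAB, close relatives of HSPB1, are not analysed here, and neither are HSF1, STIP1, AHSA1, PTGES3, BAG3, DNAJA1 and HSPA5.

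The constitutive paralog of HSP90AA1, HSP90AB1, repeated the disagreement between probes. Its brightest probe, A_72_P051491, had -0.16, -0.18, -0.40 and 0.46 on arrays 1 to 4 (mean -0.07 ± 0.37, SD, n = 4). Its 6 probes averaged -0.26 to 0.60, 3 of them below 0. On array 3, 5 of the 6 were negative, as all HSP90AA1 probes were there, and A_72_P763852 had 0.03. Of the HSP70 relatives, HSPA6, a strongly heat-inducible HSP70, had 0.79, -2.13, -0.28 and -1.67 (mean -0.82 ± 1.33, SD, n = 4). This was the 1 listed gene with an unadjusted p under 0.05 (limma, adjusted p = 0.998), with a dye term of 1.08 that was not called either (adjusted p = 1). HSPA1L, a testis-enriched HSP70, had 0.92, -0.71, 0.12 and 0.47 (mean 0.20 ± 0.69).

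The J-domain proteins hand substrates to HSP70. DNAJB1, the heat-inducible HSP40, had 0.56, -0.78, -0.93 and 0.43 on its brighter probe A_72_P203192 (mean -0.18 ± 0.78, SD, n = 4), and its other probe averaged 0.36. DNAJA4 averaged -0.01 and 0.17 on its probes. Of 6 tested cochaperones of HSP90 and HSP70, 4 had positive means and 0 were called in limma. CDC37, which brings kinases to HSP90, had 0.58, -1.01, 0.02 and 1.10 (mean 0.17 ± 0.90). FKBP4, a partner of HSP90 in steroid receptor complexes, had 0.06, -0.86, -0.04 and 1.16 (mean 0.08 ± 0.83, SD, n = 4). Both were lowest on array 2 and highest on array 4, as HSPA8 and HSPB1 were. TOMM34, which links HSP90 and HSP70 to mitochondrial import, averaged 0.40 ± 0.82, and BAG6, which guards tail-anchored proteins, 0.21 ± 0.27.

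HSBP1, a negative regulator of heat shock factor 1, was positive on all 4 arrays with 0.09, 0.11, 0.43 and 0.29 (mean 0.23 ± 0.16, SD, n = 4; limma adjusted p = 0.998), the 1 of 16 partners of which this held, against 3.96% of all tested probes. In the chaperonin, which folds actin and tubulin, TCP1 averaged 0.17 ± 0.30 over the arrays and CCT3 -0.04 ± 0.42. The prefoldin subunits PFDN6 and PFDN4, which deliver actin and tubulin to it, averaged 0.10 ± 0.48 and 0.07 ± 0.20 (SD, n = 4).

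**Figure D4:**
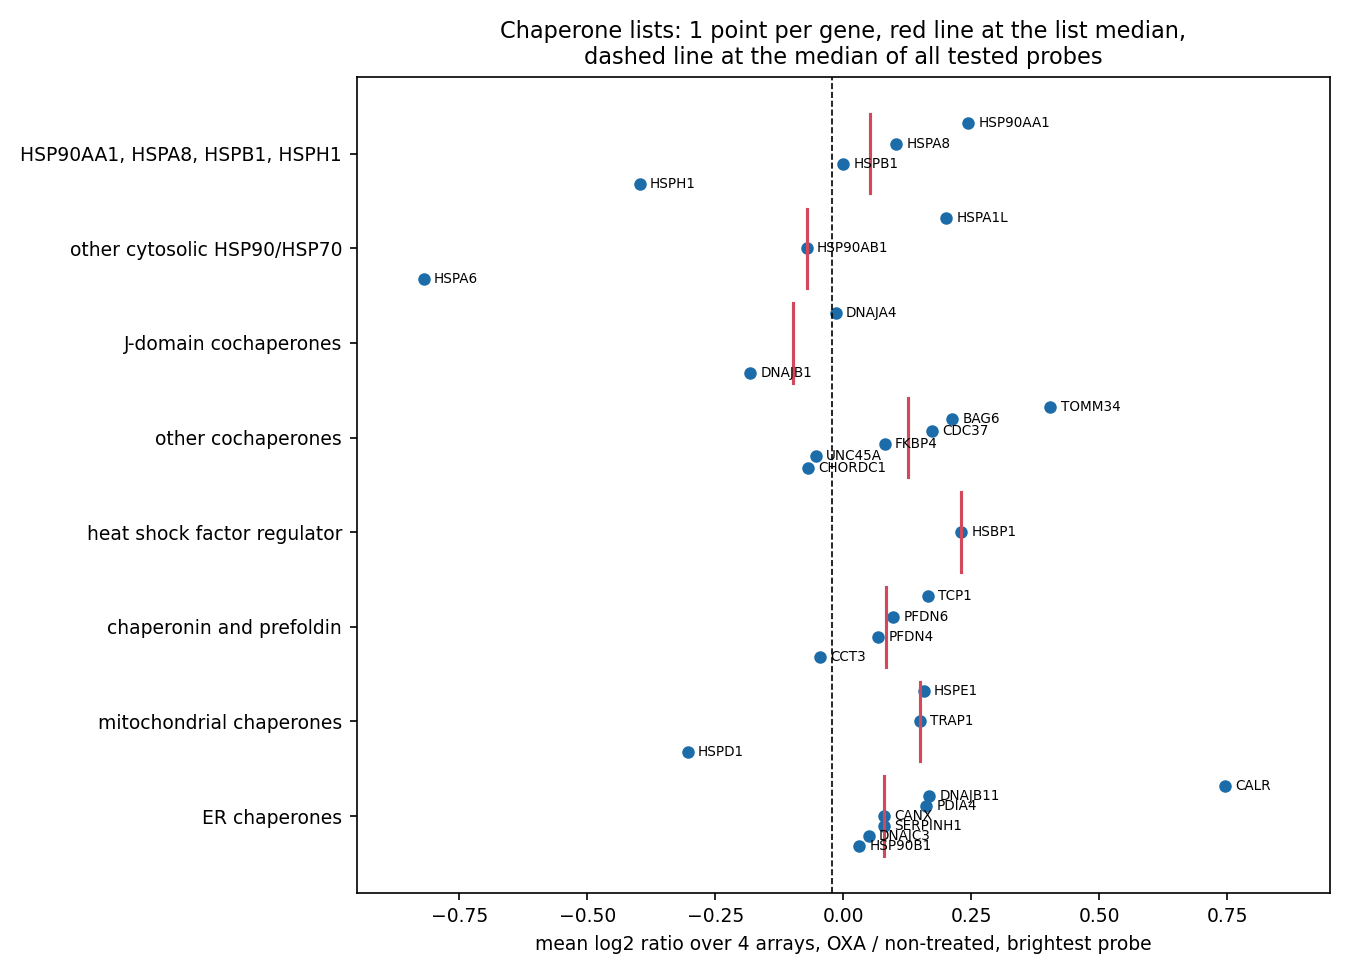
Mean log2 ratio over 4 arrays on the brightest probe (horizontal axis) of each tested gene of the chaperone lists (rows), with the list median in red and the median of all tested probes, -0.02, as a dashed line. Most genes lie within 0.25 of 0, and HSPA6 (-0.82), HSPH1 (-0.40) and HSPD1 (-0.30) are the lowest points.

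Chaperones of other compartments gave a comparison. HSPD1, the mitochondrial HSP60, had negative means on 11 of its 12 probes, and its brightest, A_72_P670158, had -0.74, 0.59, -0.18 and -0.88 (mean -0.30 ± 0.67, SD, n = 4). Arrays 1, 3 and 4 were below 0 and array 2 above it, as on the dimmer HSPH1 probe A_72_P591989. HSPE1, the partner of HSPD1 in the mitochondrial chaperonin, was positive on all 4 arrays with 0.25, 0.24, 0.08 and 0.07 (mean 0.16 ± 0.10). In the endoplasmic reticulum, 7 of 7 tested chaperone genes had positive means on the brightest probe, where 52.8% of all tested probes had negative ones. Their median was 0.08 (0.24 with array 2 turned), beside -0.02 over all tested probes, and 0 of these genes were called in limma. Other probes of these genes went below 0, 2 of 8 for HSP90B1 (lowest -0.05) and 1 of 2 for DNAJC3 (-0.11). A difference between the cytosolic members and these groups was not tested.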

How the data were processed

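Per the file headers, version 10.7.3.1 of Agilent Feature Extraction made the deposited scanner output: spot intensity, a LogRatio (log10 of Cy5 over Cy3), its error and flags. A second deposited table gives 1 log2 ratio for each probe and array, with no direction stated in the labels. Set against the scanner's log2 Cy5 over Cy3, its slope was 1 for arrays 1 and 3 but -1 for arrays 2 and 4; it therefore runs as OXA over non-treated by the sample labels, and at least 99.96% of its values lay within 0.001 of the scanner's. Its column medians were 0.10, 0.10, -0.19 and 0.07 over all probes and 0.003, -0.05, 0.002 and 0.009 over tested probes. Background and dye settings of the software are not given in the sources used here.

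These ratios were fitted over 19505 tested probes with limma 3.58.1 in R 4.3.3, with a term for OXA and 1 for the dye (residual degrees of freedom 2, prior 4.1). P-values, two-sided, were adjusted by Benjamini-Hochberg and called under 0.05. Spots of a probe were averaged, 1417 control spots were left out, and no spot was saturated. The script was tested on simulated data. RefSeq accessions, without versions, matched a gene table of Sscrofa11.1 for 6700 of 43603 probes (3029 genes). The brightest probe (highest mean log2 processed signal over both channels) stood for a gene, with the others beside it. Named were all member probes, fixed chaperones, up to 2 genes per list with the smallest p, and the 3 nearest patterns per member. HSPD1's other probes, PFDN4, CCT3 and the second DNAJB1 and DNAJA4 probes were added after their values were seen. Members, lists and tests were chosen with earlier results of these data known. Alternatives were normexp (offset 50) with loess on the median signals, no background subtraction, median centring, other filters, no dye term, array weights, separate channels, other directions, and leaving out each array. The small number of arrays limits precision. In the main fit, p-values measure the spread between arrays of the same dye orientation, drawn towards that of all tested probes.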

Additional observations from a re-analysis of the deposited data

Results flagged for a closer look

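Dixon's ratio set 1 array apart in 2 of 66 sets examined, where chance sets apart about 5%. HSPB1 had an OXA signal of 24793 for probe A_72_P679687 on array 4, while arrays 1 to 3 lay between 6074 and 9180. The non-treated signal of that probe was also highest on array 4 (17773), and its log2 ratio there, 0.48, was not set apart. DNAJA4 on probe A_72_P177971 had a log2 ratio of -0.54 on array 2, while arrays 1, 3 and 4 lay between 0.12 and 0.19.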

How the results depend on the processing

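The number of probes called was 0 under each alternative on all 4 arrays. It ran from 1 to 1093 when 1 array was left out (1, 1093, 5 and 6 without arrays 1 to 4). In these fits 1 array is alone in its dye orientation, and within each fit the member probes' intervals had nearly the same width. Their calls therefore follow the size of a ratio and not the spread of that probe. HSP90AA1 on its brightest probe changed sign with Cy5 taken as OXA throughout (-0.54) and as the mean of its probes (-0.079), and ran from 0.03 (without array 1) to 0.46 (without array 3) when 1 array was left out. HSPA8 ran from -0.13 (without array 4) to 0.34 (without array 2) when 1 array was left out and was 0.38 with array 2 turned. HSPB1, at -0.0006, changed sign with centred arrays (0.0074), Cy5 taken as OXA throughout (0.036), array 2 turned (0.38) and the mean of its probes (0.015), and ran from -0.29 to 0.29 when 1 array was left out. HSPH1 was 0.0029 on A_72_P035611 with Cy5 taken as OXA throughout, where the fit has no separate dye term, and kept its sign under the other 13 alternatives (-0.59 to -0.20); its other probe kept its sign under all 14 (-0.68 to -0.29). The median of the mitochondrial chaperones moved from 0.15 to 0.047 with array 2 turned. The cause was not tested for any of these. With normexp and loess, HSPH1 had -0.43 and -0.51 and HSPA8 0.02. No member was called under any alternative (lowest adjusted p = 0.187). The values not given here kept their direction or stayed within the spread of the arrays. Each ratio pairs both treatments on 1 array, so the fit is paired by array and no further replicate block could be added. Whether this is also a pairing by animal is not known here.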

Other observations

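HSP90B1, the endoplasmic reticulum member of the HSP90 family, had 8 tested probes that behaved alike, unlike those of HSP90AA1 and HSP90AB1. Every one of them was positive on arrays 1, 2 and 3 and negative on array 4. Its brightest probe had log2 ratios of 0.35, 0.57, 0.12 and -0.91 (mean 0.03 ± 0.65, SD, n = 4), so array 4 stood opposite to the other arrays. Among the chaperones of that compartment CALR, the calcium-binding chaperone calreticulin, had the highest mean, 0.75 ± 0.70, with 1.09, -0.19, 0.64 and 1.44 on arrays 1 to 4. Neither gene was called in limma (adjusted p = 0.998 for each).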
